A study of Mus musculus with 6 samples.

Results

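Cell division and DNA replication genes were followed in CD4+ T cells of memory phenotype from the inflamed spinal cord and from the draining lymph node of mice with autoimmune encephalomyelitis. The set holds 55 genes, 27 in mitosis, 26 in DNA replication and 2 D-type cyclins. They were chosen by name for their roles, with earlier results of these data known. Of these, 54 were measured by a probe set annotated to 1 gene, among 18193 genes in all, and Ccnb1 was not analysed here. Each gene is represented by its brightest probe set over the 6 arrays.

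The arrays held RNA from the spinal cord (n = 3) and from the inguinal lymph nodes that drain the immunisation site (n = 3). All mice were female C57BL/6, aged 8 to 10 weeks, with acute clinical experimental autoimmune encephalomyelitis (EAE) induced by the peptide MOG35-55, which comes from a myelin protein. Both groups therefore carry the disease, and no healthy mice enter the comparison. The labels do not say how the memory phenotype was defined or how many animals stand behind an array, so each p-value reflects only how these arrays vary, and that variation may be technical. The comparison asks how far the transcripts of dividing cells differ between the inflamed tissue and the node.

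A dividing cell first copies its DNA and then separates the copies. In late G1 and S phase, E2F transcription factors switch on the genes for origin licensing, the MCM helicase, the replication clamp and deoxynucleotide synthesis. In G2 and mitosis, B-MYB and FOXM1 act with the MuvB complex at a promoter element called CHR, often beside boxes bound by NF-Y, to switch on the mitotic cyclins, kinases, kinetochore proteins and spindle motors. Activated T cells divide quickly in lymph nodes, and whether they go on dividing after they enter a tissue differs between settings.

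Promoters of both kinds are shown because these elements set the classes apart in textbook terms, first for mitosis and then for replication. Each line is the stretch of 120 bases before the RefSeq start site (assembly GRCm38.p6), read 5′ to 3′ along the gene. Capitals mark motif letters found on either strand. A CHR element was searched as TTTGAA. An NF-Y box was searched as CCAAT. An E2F word was any of 4 spellings: first TTCCCGC, then also TTCGCGC, then also TTGCCGC, and last of all TTGGCGC. The stretches lie as follows: Cdc20 at chr4:118437344-118437463 (- strand), Ube2c at chr2:164769809-164769928 (+ strand), Cdk1 at chr10:69352913-69353032 (- strand), Top2a at chr11:99024190-99024309 (- strand), Mcm6 at chr1:128359706-128359825 (- strand), Hells at chr19:38930870-38930989 (+ strand) and Rrm1 at chr7:102441575-102441694 (+ strand).

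Cdc20: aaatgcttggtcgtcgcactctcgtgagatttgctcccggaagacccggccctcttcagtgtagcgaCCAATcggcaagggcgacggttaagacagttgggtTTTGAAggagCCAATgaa

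Ube2c: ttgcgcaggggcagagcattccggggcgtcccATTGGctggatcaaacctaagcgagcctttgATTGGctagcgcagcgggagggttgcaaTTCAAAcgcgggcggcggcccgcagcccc

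Cdk1: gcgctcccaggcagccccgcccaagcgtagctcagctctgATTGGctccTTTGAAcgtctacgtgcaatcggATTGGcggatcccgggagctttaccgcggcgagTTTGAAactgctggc

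Top2a: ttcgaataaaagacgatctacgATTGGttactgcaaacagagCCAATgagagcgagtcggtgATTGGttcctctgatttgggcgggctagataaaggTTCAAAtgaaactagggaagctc

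Mcm6: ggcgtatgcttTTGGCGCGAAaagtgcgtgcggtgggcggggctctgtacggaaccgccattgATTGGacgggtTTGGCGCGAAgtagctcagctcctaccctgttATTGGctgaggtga

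Hells: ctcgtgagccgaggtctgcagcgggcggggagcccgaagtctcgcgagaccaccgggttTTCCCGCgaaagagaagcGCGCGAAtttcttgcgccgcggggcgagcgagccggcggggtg

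Rrm1: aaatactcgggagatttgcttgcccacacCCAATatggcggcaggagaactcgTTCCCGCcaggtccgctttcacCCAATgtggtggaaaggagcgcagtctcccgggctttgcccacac

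The mitosis genes Cdc20, Ube2c, Cdk1 and Top2a each have at least 1 CHR element in this stretch, and each has at least 2 NF-Y boxes. The replication genes Mcm6, Hells and Rrm1 have E2F words and no CHR element there, and Mcm6 and Rrm1 have NF-Y boxes too. In Mcm6 the letters around each E2F word read as a match on both strands, so 2 such places give 4 overlapping matches. Cdk1 also has E2F words farther upstream, outside the stretch shown, with first bases at -178 and -130 from the start site. The promoters shown are examples, and not every member of a class has this layout. All these matches describe letters and do not show that a factor binds.

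Over the whole window of 300 bases given by RefSeq, from 250 before the start site to 50 after it, 21 mitosis members and 23 replication members had an entry. The CHR element was present for 14 of 21 mitosis members (66.7%) and 3 of 23 replication members (13%), against 20.2% of 27025 genes with an entry. E2F words were present for 3 of 21 mitosis members (14.3%) and 16 of 23 replication members (69.6%), against 10.9% of all genes. NF-Y boxes were common to both classes, at 85.7% and 65.2%, against 41.1% of all genes. Of the 18 CHR matches in mitosis members, 15 lay within 100 bases of the start site. Among the mitosis members with both a window and a measurement, the 14 with a CHR element had a median log2 change of -0.97 and the 6 without one -1.09. By limma (adjusted p below 0.05), 6 of these 14 and 0 of these 6 were called lower, against 1.41% of all genes. The 2 groups were not compared by a test. Of single promoter windows, whatever the gene, 17.9% held the CHR element and 9.57% an E2F word.

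**Figure D1:**
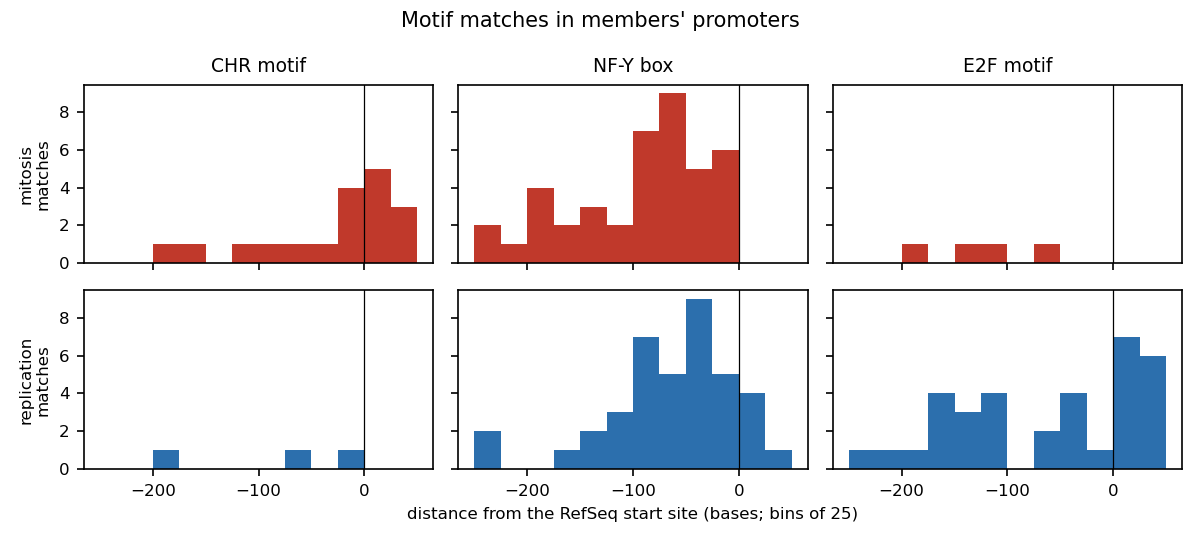
Distance of motif matches from the RefSeq start site in the promoters of mitosis members (upper row) and replication members (lower row), in bins of 25 bases. The CHR element is frequent in mitosis members (18 matches) and rare in replication members (3), E2F words show the opposite (4 and 34), and NF-Y boxes occur in both (41 and 39).

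All 26 measured mitosis members had lower mean log2 intensity in the spinal cord, and 7 of them fell by the test over all genes. The median log2 change of the class, spinal cord minus lymph node, was -1.01, a 2.01-fold lower level. It was 0.00 over all 18193 genes. Over the 10916 genes at or above the 40th percentile of brightness, the genes more like the members in level, it was -0.12. Changes were negative for 49.3% of all genes and 62% of these brighter ones. The 7 genes that fell were Cdc20, Cenpa, Ube2c, Plk1, Ccnb2, Bub1b and Kif20a (limma, Benjamini-Hochberg adjusted p below 0.05). That is 26.9% of the mitosis members, against 1.41% of all genes called lower and 2.14% of the brighter ones. Among replication members 24 of 26 had negative changes, with a median of -0.55, and 0 were called by limma, with 8 lower at an unadjusted p below 0.05, where 8.89% of all genes were lower. No member of any class was called higher, against 1.13% of all genes. In RNA from many cells, fewer dividing cells and less of each transcript per dividing cell cannot be told apart.

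**Figure D2:**
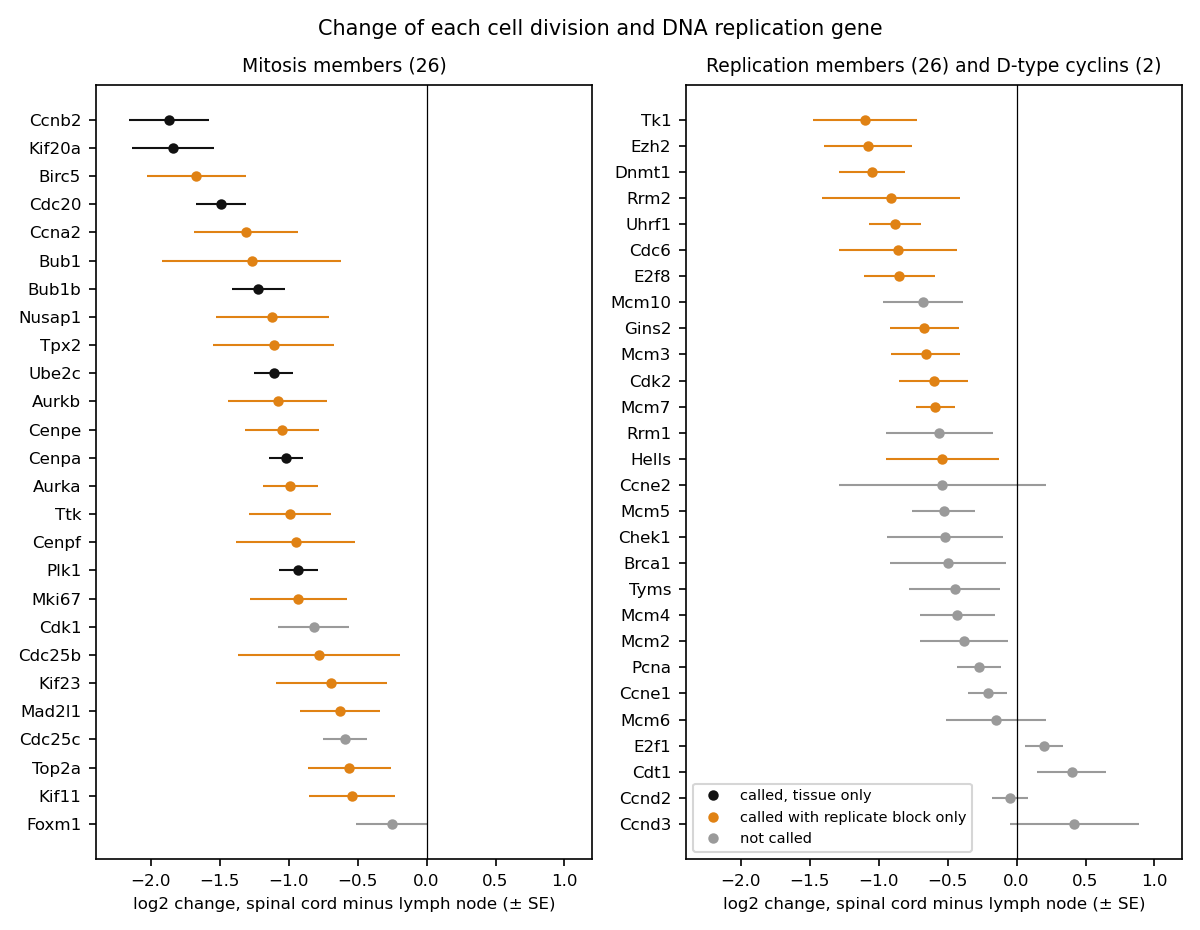
Log2 change of each measured member, spinal cord minus lymph node, with its standard error (SE, n = 3 arrays per tissue), sorted within class. The 26 mitosis members all lie left of 0 and 7 are called in the fit with tissue alone, while the replication members spread from -1.10 for Tk1 to 0.40 for Cdt1 with none called.

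Cdc20 and Ube2c work on the anaphase-promoting complex (APC/C), the ubiquitin ligase that ends mitosis, Cdc20 as its activator and Ube2c as its ubiquitin-conjugating enzyme. Cdc20 had an intensity of 754, 833 and 813 in the cord (arrays 1, 2 and 3, the order used throughout) but 1752, 2517 and 2546 in the node. The spinal cord arrays lay close together and the groups did not overlap. Cdc20 fell by 1.49 on the log2 scale (SE 0.18, 2.80-fold lower, adjusted p = 0.0151 by limma). Both of its other probe sets gave negative changes too, -1.34 and -0.77. Ube2c measured 177, 156 and 175 in the cord but 315, 397 and 386 in the node. Its groups were as clearly apart, and it fell by 1.11 (SE 0.14, 2.15-fold lower, adjusted p = 0.0167).

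The spindle checkpoint holds the APC/C back until every chromosome is attached. Bub1b, which encodes the checkpoint protein BubR1, gave 532, 806 and 638 on the lymph node arrays against 242, 317 and 284 on the spinal cord arrays. It fell by 1.22 (SE 0.19, 2.32-fold lower, limma adjusted p = 0.037). The other checkpoint members were not called, although their changes were also negative. Bub1, a checkpoint kinase, varied widely among the arrays of each tissue, with 89, 354 and 195 in the cord but 235, 884 and 411 in the node, so the groups overlapped (log2 change -1.27 ± 0.65 SE). Ttk, the kinase MPS1, had a change of -0.99 ± 0.30, and Mad2l1, the APC/C inhibitor MAD2, one of -0.63 ± 0.29.

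Among the centromere and kinetochore members, Cenpa, the histone variant that marks centromeres, had the lowest p of all members. It measured 1197, 1234 and 1184 in the cord but 2464, 2690 and 2217 in the node. Within each tissue these arrays varied little, and the gap between tissues was far wider. Cenpa fell by 1.02 (SE 0.12, 2.03-fold lower, limma adjusted p = 0.0138). Its other probe sets did not show this difference. One, at 19 to 24, lay below the 20th percentile of the table (25) and had a change of 0.02. The other, at 153 to 226, was brighter than the array medians of 68 to 71 and had a change of -0.15 ± 0.16. Cenpe, a kinetochore motor, and Cenpf, a large kinetochore protein, had changes of -1.05 ± 0.27 and -0.95 ± 0.43 and were not called.

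The cyclins and their kinase showed the same sign with unequal spread. Ccnb2, which encodes the mitotic cyclin B2, gave 1193, 2476 and 1557 on the lymph node arrays against 491, 516 and 372 on the spinal cord arrays. It had the largest change of the set, falling by 1.87 (SE 0.29, 3.65-fold lower, limma adjusted p = 0.0354). Cdk1, the kinase that cyclin B activates, measured 317, 349 and 324 in the cord but 384, 719 and 715 in the node. Lymph node array 1 lay near the spinal cord arrays, and the change of -0.82 ± 0.26 was not called (adjusted p = 0.222). Ccna2, the cyclin of S and G2 phase, had a change of -1.31 ± 0.38. The phosphatases that activate CDK1, Cdc25b and Cdc25c, had changes of -0.78 ± 0.59 and -0.59 ± 0.16. Foxm1, the transcription factor of the G2 programme, had the smallest change of the mitosis members, at -0.25 ± 0.26 with overlapping groups (adjusted p = 0.754).

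The mitotic kinases and spindle motors gave 2 more called genes. Plk1, Polo-like kinase, gave 615, 557 and 727 on the lymph node arrays against 327, 355 and 312 on the spinal cord arrays and fell by 0.93 (SE 0.14, 1.90-fold lower, limma adjusted p = 0.0316). Kif20a, a kinesin of the late spindle and of cytokinesis, measured 77, 118 and 71 in the cord but 213, 402 and 346 in the node. Its groups stood apart, and it fell by 1.84 (SE 0.30, 3.58-fold lower, limma adjusted p = 0.0417). The kinases of the spindle pole and of the chromosomal passenger complex, Aurka and Aurkb, had changes of -0.99 ± 0.20 and -1.08 ± 0.36. Birc5, the passenger subunit survivin, had one of -1.67 ± 0.36. None of these 3 was called, and in all 3 the tissues did not overlap, with spinal cord lower, which held for 9.68% of all genes. The remaining spindle members had negative changes that were not called, from -0.54 for the bipolar spindle motor Kif11 and -0.69 for the cytokinesis motor Kif23 to -1.11 for Tpx2 and -1.12 for Nusap1, which both organise microtubules.

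Mki67 and Top2a, the usual marker genes of cycling cells, overlapped between the tissues and were called only with the replicate number as a block. Mki67, whose protein Ki-67 coats mitotic chromosomes, gave 2323, 5217 and 4237 on the lymph node arrays against 1437, 2488 and 2057 on the spinal cord arrays. Lymph node array 1 lay inside the spinal cord range, and the change was -0.93 ± 0.35 (limma adjusted p = 0.306, and 0.0121 with the block). Top2a, the topoisomerase that untangles sister chromosomes, measured 1165, 1835 and 1465 in the cord but 1522, 3107 and 2101 in the node, a change of -0.56 ± 0.30 (limma adjusted p = 0.501, and 0.0461 with the block). Both genes were lower in spinal cord in each of the 3 pairs of arrays that share a number. That was also so for 24.7% of all genes and 36.4% of those at or above the 40th percentile of brightness. The pairing was taken from the data and not from the labels.

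**Figure D3:**
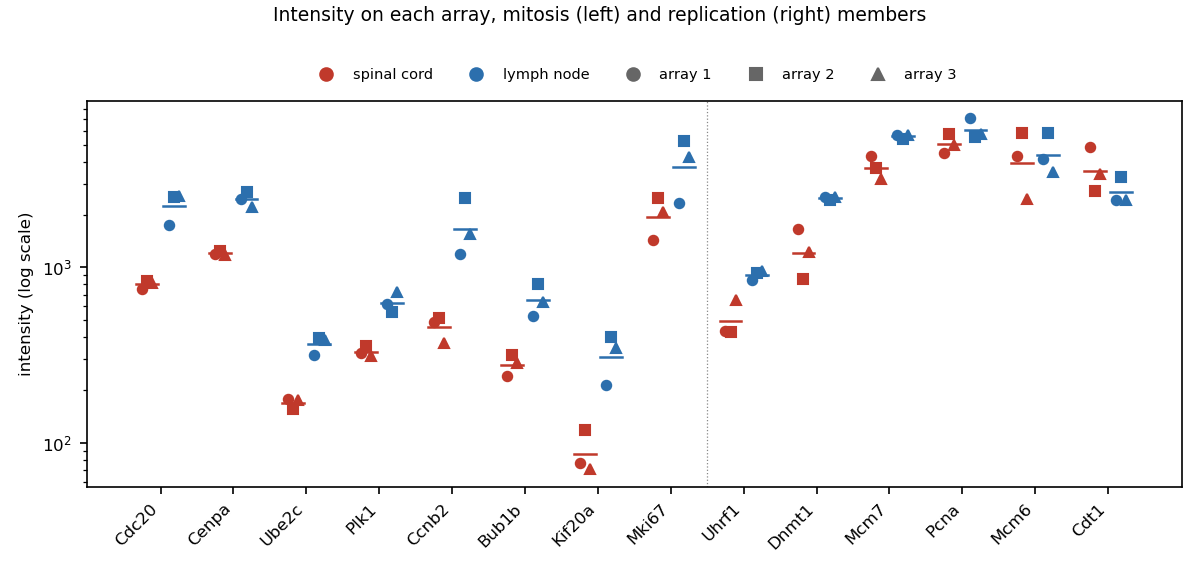
Intensity of 14 members on each of the 6 arrays, on a log scale, with the geometric mean of each tissue as a bar and mitosis members left of the dotted line. For the called genes Cdc20, Cenpa, Ube2c, Plk1, Ccnb2, Bub1b and Kif20a every spinal cord array lies below every lymph node array. Mki67, Pcna, Mcm6 and Cdt1 overlap. The called genes were picked by the test on these same arrays, and 9.68% of all genes lay apart with spinal cord lower.

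Replication members are given by the step they serve, and none of them was called with tissue alone. At S phase entry, Ccne1, the cyclin E1 gene, gave 1022, 1101 and 1336 on the lymph node arrays against 958, 1032 and 991 on the spinal cord arrays. The ranges overlapped slightly, with a change of -0.21 ± 0.14 (limma adjusted p = 0.592). Its partner kinase gene Cdk2 had a change of -0.60 ± 0.25, and Ccne2, the second cyclin E, ranged from 56 to 360 in lymph node, with a change of -0.54 smaller than its SE of 0.75. The activator E2f1 had a positive change, 0.20 ± 0.14. The repressor E2f8 gave 383, 637 and 603 on the lymph node arrays against 226, 313 and 358 on the spinal cord arrays (-0.85 ± 0.26, limma adjusted p = 0.21), so its groups stood apart. Neither was called.

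Origin licensing loads the MCM helicase onto DNA through Cdc6 and Cdt1. Cdt1 was the replication member with the largest positive change, at 4838, 2713 and 3385 in the cord but 2429, 3266 and 2419 in the node, with overlap (0.40 ± 0.25, limma adjusted p = 0.56). Cdc6 had a change of -0.86 ± 0.43. The helicase subunits had changes from -0.15 for Mcm6 to -0.66 for Mcm3, with Mcm2 at -0.38, Mcm4 at -0.43, Mcm5 at -0.53 and Mcm7 at -0.59. Mcm7 had the smallest SE of these 6, with 4310, 3688 and 3193 in the cord but 5666, 5376 and 5705 in the node (SE 0.14, groups apart, limma adjusted p = 0.113). Mcm2 measured 2654, 2363 and 1443 in the cord but 2300, 3952 and 2210 in the node, and its groups overlapped widely. The helicase activators Mcm10 and Gins2 had changes of -0.68 ± 0.29 and -0.67 ± 0.25.

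Pcna, the sliding clamp that holds DNA polymerase on its template, gave 7057, 5533 and 5735 on the lymph node arrays against 4485, 5771 and 4953 on the spinal cord arrays. The groups overlapped, with a change of -0.27 ± 0.16 (limma adjusted p = 0.537). In deoxynucleotide supply, the thymidine kinase gene Tk1 had the largest negative change of the class, -1.10 ± 0.38, with 197, 291 and 432 in the cord but 572, 454 and 936 in the node (limma adjusted p = 0.25). The ribonucleotide reductase genes Rrm1 and Rrm2 had changes of -0.56 ± 0.39 and -0.91 ± 0.50. A dimmer probe set of Rrm2 gave 598, 1084 and 752 on the lymph node arrays against 268, 252 and 313 on the spinal cord arrays. That set had a change of -1.51 ± 0.24 and passed the test adjusted over all probe sets (limma adjusted p = 0.0474), so the count of 0 rests on the brightest set. Tyms, thymidylate synthase, read only 23 to 63 on its brightest probe set, among the dimmest genes (the 20th percentile of the table is 25), and its change was -0.45 ± 0.33.

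Of the genes that copy chromatin marks onto new DNA, 3 of 4 had groups that did not overlap, against 9.68% of all genes, and none was called with tissue alone. Uhrf1, which recognises half-methylated DNA, measured 435, 428 and 652 in the cord but 847, 929 and 952 in the node (-0.88 ± 0.19, limma adjusted p = 0.0895). Dnmt1, the maintenance DNA methyltransferase, read 1647, 863 and 1229 against 2525, 2436 and 2521 (-1.05 ± 0.24, limma adjusted p = 0.0993). In both genes the lymph node arrays were tight and every spinal cord array lay below them. Ezh2, the Polycomb methyltransferase, measured 1186, 2405 and 1542 in the cord but 2820, 4803 and 3089 in the node (-1.08 ± 0.32, limma adjusted p = 0.191), also apart. The remodeller Hells had a change of -0.54 ± 0.41 with overlap. The checkpoint and repair genes Chek1 and Brca1 had changes of -0.52 ± 0.42 and -0.50 ± 0.42 with overlap.

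The D-type cyclins, which carry growth signals into G1, had changes of either sign, and neither was called. Ccnd2 gave 5018, 4619 and 3943 on the lymph node arrays against 4641, 4276 and 4125 on the spinal cord arrays (-0.05 ± 0.13, limma adjusted p = 0.914). Ccnd3 read 4047, 2515 and 1347 against 2837, 1527 and 1319 (0.42 ± 0.47, limma adjusted p = 0.779). Neither parted the tissues, and both have other probe sets of opposite sign.

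Groups that did not overlap, with spinal cord lower, were found for 16 of 26 mitosis members (61.5%) and 8 of 26 replication members (30.8%), against 9.68% of all genes. Among the brighter genes, those at or above the 40th percentile, this share was 13.9%. Titles give each tissue an array 1, 2 and 3, and arrays with equal numbers deviated together across genes. Pairing by number, spinal cord was lower in all 3 pairs for 26 of 26 mitosis members and 16 of 26 replication members (61.5%). This held for 24.7% of all genes and 36.4% of the brighter ones. The median spinal cord to lymph node ratio of the mitosis members was 0.55, 0.466 and 0.48 in pairs 1, 2 and 3, and that of the replication members 0.734, 0.571 and 0.63. Bub1 shows what the pairing removes: its ratios were 0.379, 0.4 and 0.474 although its levels overlapped.

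With the replicate number as a block, limma called 23 of 26 mitosis members (88.5%) and 12 of 26 replication members (46.2%) lower, against 7.45% of all genes, and no member higher, against 3.67%. Of the brighter genes, 11.4% were called lower with the block. Among the genes that the block added were Bub1 (adjusted p = 0.00433), Birc5 (0.00386), Mki67 (0.0121), Ezh2 (0.00588), Uhrf1 (0.0215) and Mcm3 (0.0341). Mcm2, Mcm4, Mcm5, Mcm6, Pcna, Ccne1, E2f1 and Cdt1 stayed without a call, as did Cdk1 (0.0545), Cdc25c (0.0814) and Foxm1 (0.332). Both counts lean on single arrays. With tissue alone, 0 members were called without spinal cord array 1, spinal cord array 2 or lymph node array 2, 1 without spinal cord array 3 (Uhrf1) or lymph node array 3 (Cenpa), and 7 without lymph node array 1, while the calls over all genes fell too, to between 32 and 190 lower. With the block and both arrays of a number left out, 2 members were called without number 1, and 0 without number 2 or 3, where 0 genes of all were called. The changes of all 26 mitosis members stayed negative in each of the 6 fits that leave out 1 array, as did those of 22 replication members.

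The classes can also be followed array by array, as the median over a class of each gene's log2 intensity minus that gene's mean over the 6 arrays. For mitosis this position was -0.72, -0.30 and -0.54 in the cord but 0.12, 0.92 and 0.56 in the node. For replication it was -0.57, -0.13 and -0.15 against -0.04, 0.49 and 0.39. Array 1 was the lowest of its tissue in both classes and array 2 the highest, in spinal cord as in lymph node. For replication in spinal cord, arrays 2 and 3 lay close (-0.13 and -0.15). There arrays 1, 2 and 3 were the highest for 7, 10 and 9 members. Mitosis minus replication was -0.15, -0.16 and -0.39 in the cord but 0.16, 0.43 and 0.17 in the node. So relative to replication genes the mitosis genes stood lower on each spinal cord array than on any lymph node array. This difference between classes is given as a description, with no test, since the members were chosen with results known.

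**Figure D4:**
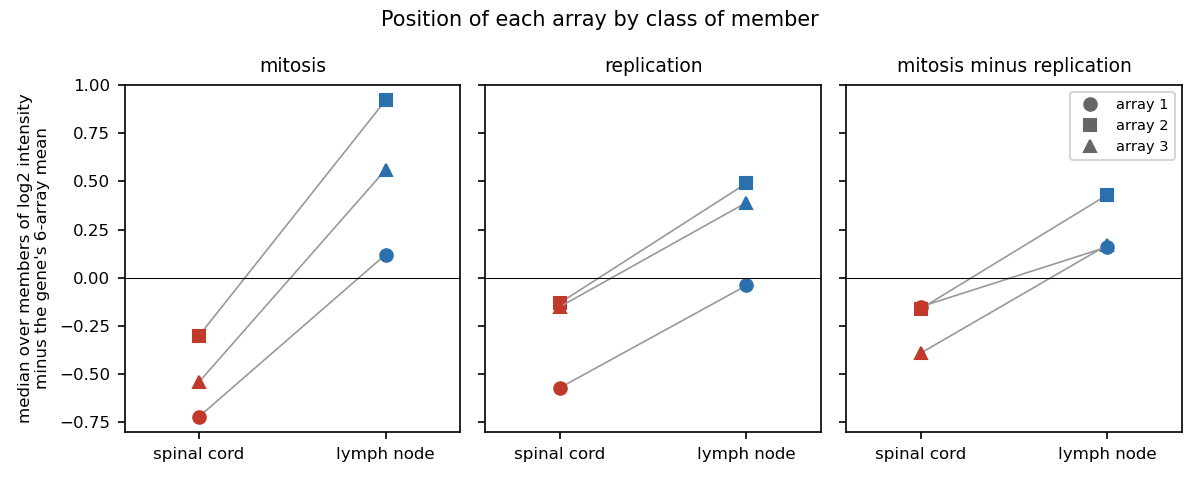
Median over the mitosis members, over the replication members, and their difference, of log2 intensity minus the gene's mean over the 6 arrays, with a line joining arrays of one number. Each line rises from spinal cord to lymph node, more steeply for mitosis (-0.72 to 0.12, -0.30 to 0.92 and -0.54 to 0.56) than for replication.

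Further genes of the same pathway were listed by function, also with earlier results of these data known, and are given as a description. Their changes were mostly negative too, where 49.3% of all genes and 62% of the brighter ones had negative changes. Of 36 other mitosis genes 33 had negative changes, with a median of -0.94. None was called by limma, against 20 lower at an unadjusted p below 0.05 (8.89% of all genes) and 23 lower with the block (7.45% of all genes). Those with the lowest p were Hmmr, a spindle protein (-0.95 ± 0.18), Cdca3 (-1.28 ± 0.25), and Kif2c and Dlgap5, which act on spindle microtubules (-1.42 ± 0.30 and -1.04 ± 0.22). The 3 with positive changes, named after their values were seen, were Kif15, Pttg1 (securin) and Cks2 (0.18 ± 0.16, 0.14 ± 0.13 and 0.75 ± 0.43). Of 27 other replication genes measured, 23 had negative changes, with a median of -0.32. None was called, against 9 lower at an unadjusted p below 0.05 and 6 lower with the block, with the same shares of all genes, 8.89% and 7.45%. The lowest p were those of the histone chaperone gene Asf1b (-0.72 ± 0.16), the origin kinase gene Cdc7 (-0.94 ± 0.23), Cks1b (-0.91 ± 0.30) and the polymerase subunit gene Pole2 (-1.13 ± 0.37).

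Upstream of S phase, 9 genes of G1 drive and E2F, Cks1b among them again, had a median of -0.42 and none was called, with 4 lower at an unadjusted p below 0.05 (8.89% of all genes) and 2 lower with the block (7.45% of all genes). E2f3 was at -0.90 ± 0.21, Cks1b at -0.91 ± 0.30, Myc at -0.54 ± 0.21 and E2f2 at -0.42 ± 0.17. Of 20 inhibitors and genes of G1 restraint, 10 had negative and 10 positive changes (median -0.01). By limma 1 was called higher, against 1.13% of all genes, and 0 were called lower, against 1.41%. The called gene was Cdkn1a, which encodes the CDK inhibitor p21. It measured 2603, 2313 and 2738 in the cord but 193, 225 and 157 in the node, a rise of 3.75 on the log2 scale (SE 0.17, 13.4-fold, limma adjusted p = 0.00171), and it was called in all 6 fits that leave out an array. The related inhibitor genes Cdkn2b, Cdkn2c and Cdkn1b had changes of 0.88 ± 0.21, -0.75 ± 0.26 and -0.21 ± 0.14, the pocket protein gene Rbl1 one of -0.68 ± 0.17 and Ccng1 one of -0.65 ± 0.19. With the replicate block of limma, described above, Cdkn2b (adjusted p = 0.0146), Cdkn2c (0.0229) and Ccng1 (0.0407) were also called. The block thus called 2 of the 20 genes lower (10%), against 7.45% of all genes and 11.4% of the brighter ones. It called 2 higher, against 3.67% of all genes.

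**Figure D5:**
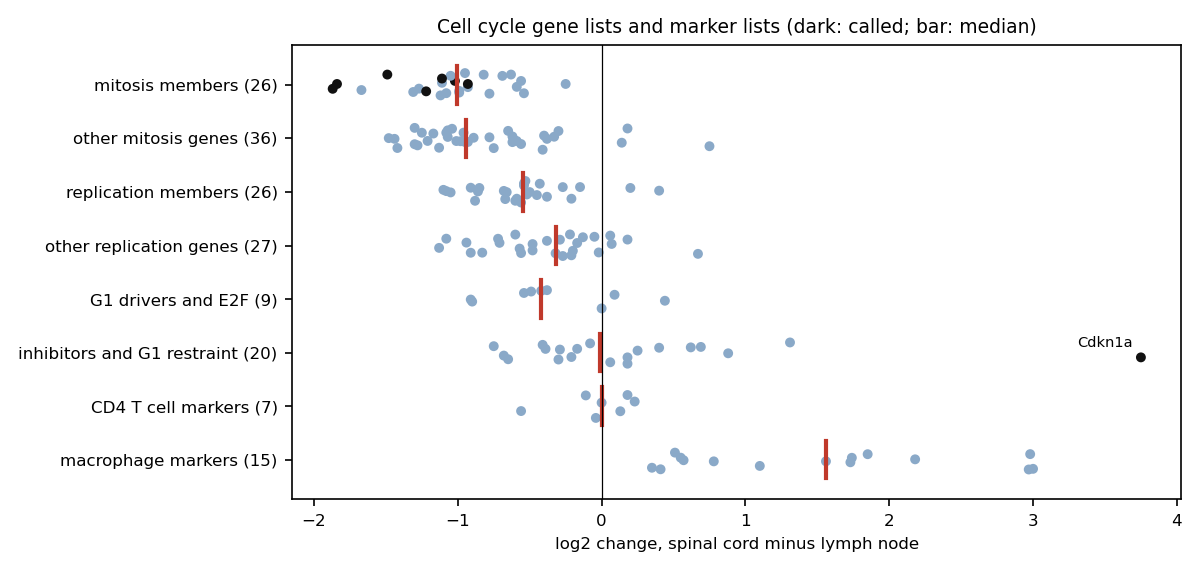
Log2 change, spinal cord minus lymph node, of each gene in the member classes, the other cell cycle lists and 2 marker lists, with called genes dark and medians as bars. Mitosis lists centre near -1 (medians -1.01 and -0.94), replication lists nearer 0 (-0.55 and -0.32), CD4 T cell markers at 0.00 and macrophage markers at 1.56, and Cdkn1a stands alone at 3.75.

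Markers of the labelled cell type and of other cells were read on the same arrays. The 7 measured CD4 T cell markers (Cd3d, Cd3e, Cd3g, Cd4, Cd5, Cd28 and Cd44) had a median change of 0.00, with summed intensities of 36627 to 44784 (cord) against 38896 to 44685 (node). All 15 macrophage and microglia markers had positive changes (median 1.56, 0 called, 14 at an unadjusted p below 0.05, against 5.39% of all genes higher, and 8 with the block, against 3.67%), with sums of 1384, 5737 and 3055 on the cord arrays against 705 to 815 on the node arrays. All 8 neutrophil markers were also positive (median 0.65), with sums of 480, 1966 and 738 against 367 to 506. Among the spinal cord arrays, array 1 thus had the lowest sums of these markers and the lowest mitosis position, and array 2 the highest of both. The lymph node arrays had the same order of mitosis position (0.12, 0.92 and 0.56), with macrophage sums of only 705, 739 and 815. Within pairs 1, 2 and 3 the median mitosis ratio of cord to node was 0.55, 0.466 and 0.48, lowest in pair 2. Of 9 B cell markers, Cd22 fell by 2.67 (SE 0.13, limma adjusted p = 0.00171), from 620 to 750 in the node to 98 to 116 in the cord. Cd79b gave 117, 79 and 57 on the node arrays against 43, 29 and 39 on the cord arrays (-1.15 ± 0.29, limma adjusted p = 0.134), and was called with the block (0.0267). Of the other 7 B cell markers, Ms4a1 and Cd79a had changes of -0.10 and 5 were positive, up to 0.28, so 4 of 9 were negative. Ms4a1 and Cd79a read 27 to 43 and 36 to 63. The summed intensity of the 9 B cell markers was 413 to 442 in the cord against 997 to 1060 in the node. Cd22 alone gave 620 to 750 of the node sums and 98 to 116 of the cord sums, so the gap rests mainly on this gene. Of the 4 germinal centre B cell markers measured, S1pr2 read 390 to 504 and Mybl1, Gcsam and Rgs13 read 13 to 28, and none was called. The median mitosis change was -1.10 without spinal cord array 2, where these myeloid sums were highest, and -0.90 without array 1. The part of other cells in the members' changes was not tested.

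Probe sets add a limit to single genes. Of the 54 members, 40 had further probe sets, and of these 78 further probe sets 53 had negative changes. In 17 members at least 1 of them had the opposite sign to the one kept. Among the 7 called members this held for Cenpa alone, by its set at 19 to 24, and its other set was near 0 as given above. Of the probe sets not kept, 2 passed the test adjusted over all probe sets, 1 of Cdc20 (adjusted p = 0.012 by limma) and 1 of Rrm2 (0.0474).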

How the data were processed

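Per the labels, biotin-labelled cRNA was made by repeated Affymetrix amplification, starting with 1 ng of total RNA. The authors used RMA, per the submitters' processing notes. The RMA version was not given in the sources used here. As deposited, the table holds intensity values on a linear scale in whole numbers (9 to 39505, array medians 68 to 71), and log2 was taken before testing. The number of arrays limits precision, beside the limits of probe sets and single arrays given above. The effect of the amplification on precision was not tested.

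Of 45101 probe sets, 34945 carried 1 gene symbol in the platform annotation. The brightest per gene was kept, giving 18193 genes. Tissue was the only term in limma 3.58.1 (lmFit, eBayes; R 4.3.3), two-sided. The p-values of all genes were adjusted together by Benjamini-Hochberg, and calls were made at an adjusted p below 0.05. The exact permutation test of 3 against 3 arrays cannot go below p = 0.1 and was not used. The fit was tested on simulated data. Tables and motif searches used Python 3.11.15, pandas 2.3.3 and numpy 2.4.6, figures matplotlib 3.10.9.

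To check the pairing, each array's deviation from its tissue mean was correlated across genes with that of each array of the other tissue. Arrays with equal numbers gave 0.576, 0.509 and 0.777, and the rest -0.569 to 0.00506. The numbers were therefore taken to pair the arrays, from the data and not from the labels. Part of this contrast follows from the centring.

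The members, lists, motifs and alternatives were chosen with earlier results of these data known. Full values are given for called members, the 6 with the lowest p in each class and 8 well-known genes, of which Ccnb1 was not analysed. Other members are given by their change. Bub1, Cdt1 and a dimmer probe set of Rrm2 are given in full outside this rule, after their values were seen. In the other lists up to 4 genes with the lowest p are named. Further genes (Cdkn1b, Cdkn2c and markers) were named after their values were seen. Some listed genes are not reported here. The alternatives were the replicate block, removal of single arrays, removal of dim genes, median centring, quantile normalization, an intensity trend, array weights, other probe set choices, a floor at the 20th percentile, a stricter threshold and narrower classes. The block fit lacking a whole number was added after seeing the data.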

Additional observations from a re-analysis of the deposited data

How the results depend on the processing

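Of 808 recomputed single-member changes, 722 kept their direction and their side of the threshold, 46 lost the call, 31 gained one and 9 changed sign. Only the 7 members called in the reported fit could lose a call, so most of the 722 belong to members not called there. All 7 lost the call when any 1 spinal cord array or lymph node array 2 was left out. Those that changed sign, none called, were Ccne2 (-1.28 to 0.06 when 1 array was left out), Mcm6 (-0.43 to 0.20, and 0.00 with array weights), Hells (0.65), Ccnd2 (0.30) and Ccnd3 (-0.44) with the probe set of highest SD, and Ccnd2 also at -0.15 to 0.02 when 1 array was left out and at 0.05 with quantile normalization. The positive values were those without lymph node array 2 (Ccne2, and Mcm6 at 0.05), spinal cord array 3 (Mcm6) and lymph node array 1 (Ccnd2). The median change kept its sign in every alternative run, with -1.22 to -0.79 for mitosis and -0.82 to -0.44 for replication when 1 array was left out. It was -0.82 for replication without lymph node array 1. With the mean of a gene's probe sets it was -0.78 for mitosis and -0.36 for replication.

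Members called lower numbered 7 in the reported fit, 35 with the replicate block, 0 to 7 when 1 array was left out, 4 with an intensity trend, 2 with the floor and 0 at an adjusted p below 0.01. With the block and without number 1, 2 or 3 they numbered 2, 0 and 0. Over all genes, 206 were higher and 257 lower. With the replicate block these were 668 and 1355, with the floor 77 and 84, and at the stricter threshold 56 and 47. With 1 array left out they were 49 to 136 higher and 32 to 190 lower, and under the block 0 and 0 without number 2 or 3. Fewer arrays and the smaller counts over all genes go together in these fits. The cause of the lower counts with the floor was not tested.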
